A study of Mus musculus with 5 samples.

Results

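Transcript levels of the subunits of RNA polymerase II, of the Mediator complex and of the general transcription factors with their TBP-associated factors were followed in mouse macrophages exposed to LPS. Genes were taken by symbol: those beginning with Polr2 and ending in a letter from a to m, those beginning with Med and a number, those beginning with Gtf2, and those beginning with Taf and a number. Of 13339 genes listed, 80 matched: 13 Polr2, 30 Med, 15 Gtf2 and 22 Taf genes. The symbol rule brings in several genes that are not parts of the basal machinery, namely the TFII-I family, 2 TAF-like subunits of the SAGA acetyltransferase, 4 TAFs of the RNA polymerase I factor SL1, and Taf15. Of the 80 genes, 78 had a mean of at least 1 FPKM (fragments scaled to transcript length and library size) over the 5 libraries and entered the counts. The other 2 were Med12l at 0.17 to 0.35 FPKM and Taf4b at 0.15 to 0.43 FPKM, and none of the 80 was listed at 0 in any library.

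Polymerase II cannot find a promoter alone. TFIID, built from TBP and its TAFs, marks the start site, TFIIA and TFIIB stabilise it and place the polymerase, TFIIF and TFIIE bring in TFIIH, and TFIIH opens the DNA and phosphorylates the polymerase tail. Mediator joins this assembly to activators bound at enhancers through its tail and middle, contacts the polymerase through its head, and carries a detachable kinase module that blocks the contact with the polymerase until it leaves. In macrophages, the response to LPS through the receptor TLR4 is a well-studied case of rapid, signal-driven transcription.

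The libraries came from bone marrow of C57BL/6 mice 8 weeks old, cultured for 5 days with the growth factor M-CSF, and exposed to LPS at 100 ng/ml for 4, 8, 12 or 24 h, or left at 0 h. There was 1 library per time point, all with the sample name WT2 in their titles, and the number of mice behind each is not given in the sources used here. Unstimulated cultures of the later times were not analysed here, so LPS and time in culture cannot be told apart. With 1 library a time, no difference below has a replicate check, and no test or p-value is given. The depth read from the steps of low FPKM values was 18.7 to 19.1 M reads per library, although only 57.1% to 69.3% of the 121 to 138 values behind these estimates came out whole, against 28.4% to 29.8% by chance. Macrophage markers, 6 of 6 listed, summed to 2030 to 3035 FPKM. Cd68 and Csf1r were lower at 24 h than at 0 h, and Adgre1, Itgam, Fcgr1 and Mertk were higher. Cd68 was 1896 FPKM at 0 h and 824.5 FPKM at 24 h, and Adgre1 was 340.5 and 967 FPKM. The labels' extraction text speaks of dendritic cells, whose 5 markers summed to 14.8 to 45.9 FPKM. Of these, Itgax was 43.96 FPKM at 0 h and 4.65 FPKM at 24 h, Ccr7 was 1.2 FPKM at 0 h, 14.8 FPKM at 8 h and 9.13 FPKM at 24 h, and Flt3, Zbtb46 and Xcr1 were at 0.64 FPKM or less. Neutrophil markers, 5 of 6 listed, summed to 324, 308, 246, 175 and 57.7 FPKM in time order, and their part in the results was not tested. Among them only Ly6g was higher at 24 h than at 0 h (3.71 against 0.12 FPKM), and S100a8 was highest at 8 h (143.5 FPKM). In such bulk samples, fewer cells of a type and less RNA per cell cannot be told apart.

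The sequence upstream of the start site was available for 69 of the 80 genes (RefSeq, GRCm38.p6). The stretches below are shown because Med13 and Med21 were at least 2-fold higher at 4 h, Gtf2f1 shared an uncommon motif with Med21, and Polr2e was the polymerase subunit with the largest deficit. Each is the longest piece of the 250 bases before the start that lies outside every annotated exon and gene, read 5′ to 3′ on the gene's strand, with capitals for motif matches on either strand. The corresponding windows of Med13l, Gtf2i, Med22 and Gtf2b lay wholly or mostly within annotated exons or genes and are not printed. The pieces lie at chr11:86357603-86357846 (minus strand), chr6:146642329-146642546 (plus strand), chr17:57011395-57011468 (minus strand) and chr10:80039796-80039909 (minus strand).
Med13: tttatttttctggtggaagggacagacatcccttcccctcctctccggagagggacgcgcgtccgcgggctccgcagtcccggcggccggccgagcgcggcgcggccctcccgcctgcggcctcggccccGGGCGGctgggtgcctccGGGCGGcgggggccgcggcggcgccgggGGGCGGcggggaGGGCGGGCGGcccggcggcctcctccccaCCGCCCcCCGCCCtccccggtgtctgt
Med21: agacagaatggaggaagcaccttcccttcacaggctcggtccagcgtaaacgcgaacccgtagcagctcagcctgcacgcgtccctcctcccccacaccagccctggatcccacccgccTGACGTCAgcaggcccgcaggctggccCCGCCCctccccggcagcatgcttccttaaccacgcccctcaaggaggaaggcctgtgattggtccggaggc
Gtf2f1: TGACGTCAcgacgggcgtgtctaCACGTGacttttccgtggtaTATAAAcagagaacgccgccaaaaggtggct
Polr2e: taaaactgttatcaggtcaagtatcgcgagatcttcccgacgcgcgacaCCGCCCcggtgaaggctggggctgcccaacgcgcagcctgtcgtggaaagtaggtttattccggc
The capitals in Med13 are 7 GC boxes (GGGCGG), of which 2 overlap, and the Polr2e piece holds 1. Med21 holds a CRE (TGACGTCA) at −131 to −124 and a GC box. Gtf2f1 holds a CRE at −180 to −173, an E-box (CACGTG) and a TATA motif (TATAAA) at −137 to −132. These positions count from the start of the promoter entry, which for Gtf2f1 lies inside the annotated gene. The Gtf2f1 piece ends at −107, next to the annotated 5′ end of the gene, so its motifs lie closer to that end than the positions say.

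Across the 250 upstream bases, the GC box was in 45 of the 69 genes (65.2%), close to the 64.5% of 8001 tested genes with a promoter entry and above the 32.7% of all 32851 entries. The ETS motif CCGGAAG was in 19 (27.5%, against 17.6% and 6.91%), the NRF1 motif GCGCANGCGC in 12 (17.4%, against 10.5% and 3.74%) and the E-box in 10 (14.5%, against 10.5% and 6.02%). TATAAA was in 11 (15.9%, against 7.49% and 12.4%). The CRE was in 3, Gtf2f1, Med21 and Taf11 (4.35%, against 3.19% and 1.55%), of which Taf11 was 15.4, 10.8, 14.8, 10.6 and 11.4 FPKM in time order. The AP-1 motif TGANTCA was in 3 (4.35%, against 5.54% and 6.75%). The NF-kB motif GGGANNTTCC and the interferon response motif GAAANNGAAA, both tied to LPS-driven genes, were in 0 of the 69 windows, against 1.52% and 3.66% of tested genes. These are matches of letters in a short window and describe no binding.

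Differences are given on the scale log2(FPKM + 1), on which low genes appear closer together than their FPKM ratios, and 2 levels were called apart when they differed by at least 1 on that scale, a 2-fold difference. At 4 h of LPS, 4 of the 78 genes were higher than at 0 h (5.13%, against 12.2% of the 9795 genes tested) and 25 were lower (32.1%, against 38.1%). The 4 higher genes were Med13l, Med13, Med21 and Gtf2b. At 8 h, 2 were higher (12% of all genes) and 17 lower (28.9%), and at 12 h 1 was higher (12.3%) and 12 lower (21.5%). At 24 h, 1 was higher (1.28%, against 11.3%) and 6 were lower (7.69%, against 14.5%). At each of the 4 times, the share of these genes past 2-fold was below the share of all genes tested, in both directions. This depended on the pseudocount for the genes lower at 4 h: with 0.1 FPKM, 37 of the 78 were lower, a share above the 44% of all genes. Between 4 h and 24 h, 16 were higher at 24 h (20.5%, against 25%) and 2 lower (2.56%, against 8.19%). The 16 were Polr2a and Polr2i, the Mediator genes Med18, Med20, Med22 and Med24, the general factor genes Gtf2e2, Gtf2h2, Gtf2h3 and Gtf2h4, the TFII-I genes Gtf2i and Gtf2ird1, and the TAFs Taf4, Taf5, Taf6 and Taf12, and the 2 were Med13l and Gtf2b.

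**Figure D1:**
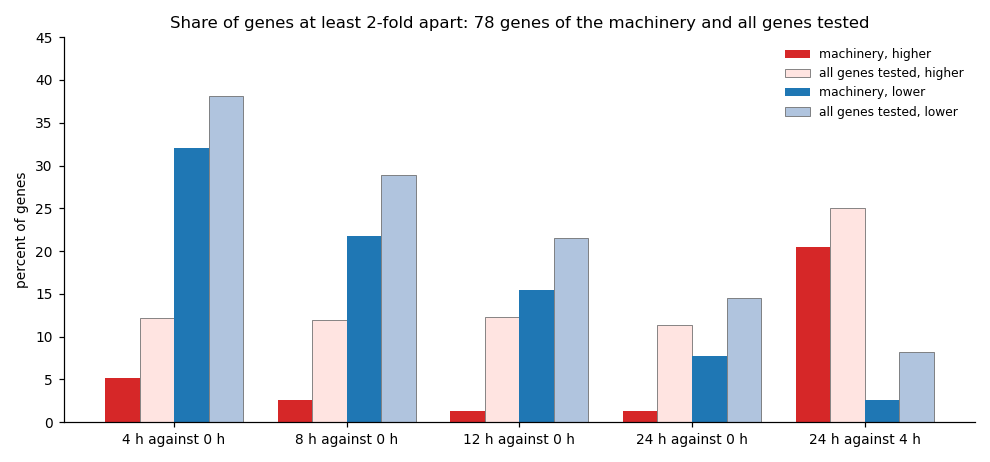
Percent of genes at least 2-fold higher (red) or lower (blue) on log2(FPKM + 1) in 5 pairs of libraries, for the 78 genes (dark bars) and for all 9795 genes tested (light bars). In all 5 pairs the dark bar of each direction is the shorter.

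A larger share of these genes than of all genes stayed near the starting level. Of the 78, 48 were within 2-fold of the 0 h library at all 4 later times (61.5%), against 39.4% of all genes tested. Among the 8196 genes whose mean lay between 1.26 and 56.2 FPKM, the range spanned by the 78, that share was 40.6%. It was 76.9% against 58.4% when only the 4 LPS libraries were compared with each other. The margin over all genes was present under each alternative tried. It was narrowest with no filter on low values, at 62.5% of the 80 genes against 52.7%, and widest with the trend over transcript length removed, at 80.8% against 54.5%.

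The genes with the highest FPKM were not the same in every library. Taf10, Polr2j and Polr2f led at 0 h with 86.6, 63.7 and 63.6 FPKM. Gtf2f1, Polr2g and Gtf2b led at 4 h with 76.6, 55.8 and 55.1 FPKM. At 24 h the leaders were Taf10, Polr2g and Gtf2f1 with 44.8, 42.02 and 40.7 FPKM.

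The libraries differed as a whole, and this bears on every direction given here. Against 0 h, the median gene tested differed by −0.70, −0.49, −0.35 and −0.11 on the log2 scale in time order, and for 24 h against 4 h by 0.49. The medians of the 78 genes were −0.84, −0.44, −0.44 and −0.12 against 0 h, and 0.55 for 24 h against 4 h. With each library centred on its median gene, 9 of the 78 were higher at 4 h (21.5% of all genes) and 8 lower (13.4%). A difference also followed transcript length: between 4 h and 0 h, Spearman's rho with the length of the longest coding transcript was 0.30 over the 78 genes and 0.29 over 9746 genes, which are not independent replicates and share their libraries. The 21 genes under 1500 nt had a median of −0.89 at 4 h, the 16 of 4000 nt or more a median of −0.11, and all genes of those lengths −1.22 and −0.29. With the length trend removed, 9 were higher (19.9% of all genes) and 4 lower (12%). Small differences changed sign between scales: at 4 h, 15 of the 78 were above 0 as deposited (27.7% of all genes), 36 after centring (50%) and 44 with the length trend removed (50.1%). Removing the trend turned 29 of the 78 from below to above 0, and the median of the 78 from −0.84 to 0.10. The later comparisons on these scales are given with the share of all genes beside them. Centred, 3 genes were higher (18% of all genes) and 4 lower (14.9%) at 8 h, 3 higher (16.5%) and 6 lower (12.9%) at 12 h, and 3 higher (12.6%) and 5 lower (12.3%) at 24 h. Without the length trend, 6 were higher (17.7%) and 3 lower (13.3%) at 8 h, 4 higher (15.9%) and 3 lower (10.4%) at 12 h, and 5 higher (11.8%) and 5 lower (10.1%) at 24 h. For 24 h against 4 h, 4 were higher (9.65%) and 6 lower (15.3%) centred, and 6 higher (9.49%) and 5 lower (15.1%) without the length trend. In all of these the share of the 78 was below that of all genes.

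On all 3 scales at 4 h, Med13l, Med13, Med21 and Gtf2b were at least 2-fold higher and Med22, Gtf2i and Polr2e at least 2-fold lower.

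**Figure D2:**
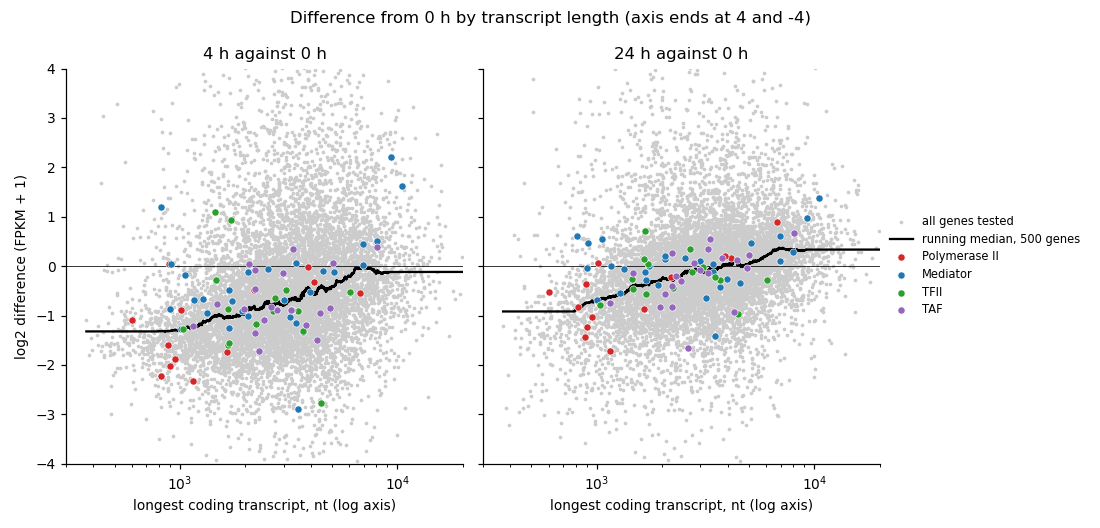
Difference from the 0 h library on log2(FPKM + 1) (y axis, cut at 4 and −4) against the length of the longest coding transcript in nt (x axis, log scale) at 4 h and 24 h, with all genes tested in grey, their running median over 500 genes as a line, and the 78 genes coloured by family. Short genes sit lower than long genes in both panels, and Med22 and Gtf2i lie far below the line at 4 h while Med13l, Med13 and Med21 lie above it.

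**Figure D3:**
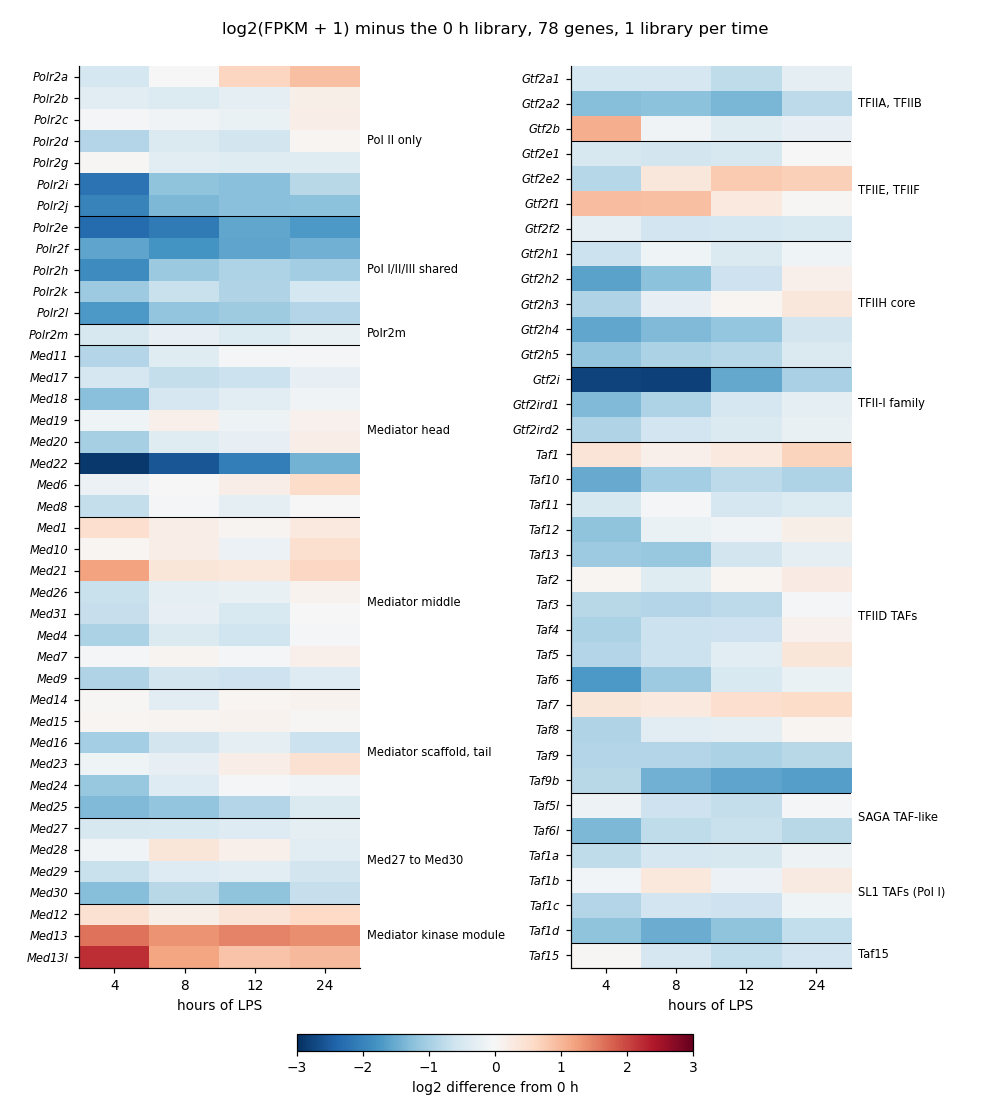
Difference of each of the 78 genes from the 0 h library on log2(FPKM + 1) at 4, 8, 12 and 24 h (colour scale from −3, blue, to 3, red), with genes in rows grouped by complex and 1 library per column. Red cells gather in the 3 rows of the Mediator kinase module, and the block of shared polymerase subunits is blue at all 4 times.

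Among the polymerase subunits, the 5 used by all 3 nuclear polymerases were all lower after 4 h of LPS. These shared subunits, Polr2e, Polr2f, Polr2h, Polr2k and Polr2l, were at least 2-fold lower at 4 h (median −1.73), beside 38.1% of all genes. At 24 h, 3 were still lower (median −1.04), beside 14.5% of all genes. Of the 7 subunits found in polymerase II only, 2 were lower at 4 h, and the median of the 7 was −0.54. Transcripts of the shared subunits were 601 nt (Polr2k) to 1650 nt (Polr2l) long. The median of the shared subunits at 4 h was −1.03 after centring and −0.60 with the length trend removed. On that last scale Polr2k turned to 0.23, and of the shared subunits only Polr2e, at −1.07, stayed past 2-fold.

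Polr2e (gene ID 66420, chr10:80035953-80039659), the jaw subunit shared by the polymerases, measured 46.4 FPKM at 0 h and 8.49, 9.87, 15.2 and 13.3 FPKM at 4, 8, 12 and 24 h. All 4 LPS libraries lay far below the 0 h library, and the difference at 24 h, -1.73 on the log2 scale, was -1.62 after centring and -1.11 with the length trend removed. Polr2f, a small assembly subunit, was 63.6, 20.4, 17.5, 20.5 and 22.8 FPKM in time order, and Polr2h was 11.5, 2.4, 4.78, 5.65 and 5.11 FPKM. Polr2l measured 17.7, 4.64, 7.23, 7.99 and 9.24 FPKM and Polr2k 38.6, 17.6, 23.95, 20.3 and 26.5 FPKM. In each of these 5 genes the 0 h library was the highest of the 5, as it was for 53.8% of the 78 and 48.7% of all genes tested.

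Polr2a (gene ID 20020, chr11:69733997-69758633), which encodes the catalytic subunit with the repeated C-terminal tail, followed another course: 16.2 FPKM at 0 h and 10.9, 16.04, 25.9 and 31.02 FPKM at 4, 8, 12 and 24 h. At 4 h it differed from 0 h by -0.54 on the log2 scale, or 0.16 after centring, and it was above its starting level at 12 and 24 h, where the difference from 0 h was 0.89, or 1.0 after centring and 0.56 with the length trend removed. Polr2b, the other large subunit that closes the active site, was 12.96, 10.1, 9.59, 10.6 and 14.8 FPKM. The ratio of Polr2a to Polr2b within a library was 1.25, 1.07, 1.67, 2.44 and 2.10. Polr2c, an assembly platform of the core, was nearly level at 15.7, 15.4, 14.6, 13.6 and 18.2 FPKM. Polr2d and Polr2g form the stalk of the polymerase, and Polr2d was 12.4, 6.25, 8.91, 8.14 and 12.98 FPKM while Polr2g was 54.2, 55.8, 43.3, 42.2 and 42.02 FPKM.

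Polr2i, a subunit tied to elongation and start-site choice, was 19.05, 3.32, 7.68, 7.43 and 10.3 FPKM, a difference of -2.21 at 4 h. Polr2j, the partner of Polr2c in the core platform, was 63.7, 15.03, 24.3, 25.96 and 26.4 FPKM. The ratio of Polr2c to Polr2j was 0.246 at 0 h and 1.02, 0.601, 0.524 and 0.688 later, so the level of Polr2c per length was under that of its partner at 0, 8, 12 and 24 h and about equal to it at 4 h. With the length trend removed the 4 h differences of Polr2i and Polr2j were -0.90 and -0.70, short of 2-fold. Polr2m encodes Gdown1, which binds the polymerase without being a core subunit, and was 35.97, 25.4, 30.4, 26.8 and 30.7 FPKM. Over the 12 core subunits, the highest level was 5.52 times the lowest at 0 h, 23.3 times at 4 h and 7.47 to 9.05 times later. Polr2h was the lowest of them in all 5 libraries. Exons of 14 of the 80 genes overlap exons of a protein-coding neighbour. They are Polr2b, Polr2c, Polr2f, Polr2i, Polr2j, Med12l, Med19, Med20, Taf1c, Taf1d, Taf5, Taf6, Taf9 and Taf10. Whether the libraries kept strand is not given in the sources used here, so the values of these genes may include reads of the neighbour.

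Of the 29 Mediator genes that passed the filter, 3 were higher and 6 lower at 4 h, and of the 13 polymerase genes 0 were higher and 7 lower, where 12.2% of all genes were higher and 38.1% lower. At 24 h, 1 Mediator gene was higher and 1 lower, and 0 polymerase genes were higher and 4 lower, beside 11.3% and 14.5% of all genes. The Mediator median at 4 h was −0.51, or 0.18 after centring and 0.32 with the length trend removed, and the polymerase median was −1.09, −0.39 and −0.28 on the same scales. At 24 h these medians were 0.01, 0.12 and 0.23 for Mediator and −0.53, −0.42 and 0.02 for the polymerase, so which group lay nearer to its start depended on the scale. The 3 genes of the kinase module had the highest median of the modules at 4 h on all 3 scales, at 1.63, 2.33 after centring and 1.75 with the length trend removed. The head was at −0.79, −0.09 and 0.15, the middle at −0.37, 0.33 and 0.59, the tail at −0.57, 0.12 and −0.16, and Med27 to Med30 at −0.58, 0.12 and 0.38.

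Med13l and Med13 encode paralogous proteins that link the kinase module to the rest of Mediator, and a complex holds either of them. Med13l (gene ID 76199, chr5:118560330-118765438) measured 4.38 FPKM at 0 h and 24.05, 11.3, 8.78 and 9.62 FPKM at 4, 8, 12 and 24 h. Its 4 h library was the highest, 5.49 times the 0 h level, and the 24 h level was 2.2 times that at 0 h. The log2 difference at 4 h was 2.22, 2.92 after centring and 2.34 with the length trend removed. Between 4 h and 24 h it was -1.24, the most negative difference of any Mediator gene that passed the filter. Med13 (gene ID 327987, chr11:86267033-86357596) was 4.76 FPKM at 0 h and 16.8, 13.6, 15.2 and 14.1 FPKM at 4, 8, 12 and 24 h. Its level at 4 h was 3.54 times that at 0 h and 2.96 times at 24 h, with log2 differences of 1.63, 1.34, 1.49 and 1.39 from 0 h in time order. Med13 was the 1 gene of the 78 at least 2-fold higher at all 4 later times on all 3 scales. The ratio of Med13l to Med13 was 0.920 at 0 h, 1.43 at 4 h and 0.826, 0.579 and 0.682 later, so Med13l was the more abundant of the pair per length at 4 h only.

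Med12, which activates the module's kinase, was 6.1, 8.74, 7.06, 8.24 and 9.78 FPKM, and its paralog Med12l stayed at or under 0.35 FPKM. Med13 was at 0.780 times the level of Med12 at 0 h and at 1.93, 1.93, 1.84 and 1.44 times later. The enzymes of the module did not share the course of Med13. Cdk8 was 10.2, 5.54, 7.91, 9.46 and 14.6 FPKM, its paralog Cdk19 was 10.4, 4.64, 3.34, 5.02 and 9.12 FPKM, and their cyclin, Ccnc, was 8.1, 10.6, 7.22, 4.63 and 9.01 FPKM. Of these 3 genes, 0 were higher and 1, Cdk19, was lower at 4 h, with a median of −0.77.

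**Figure D4:**
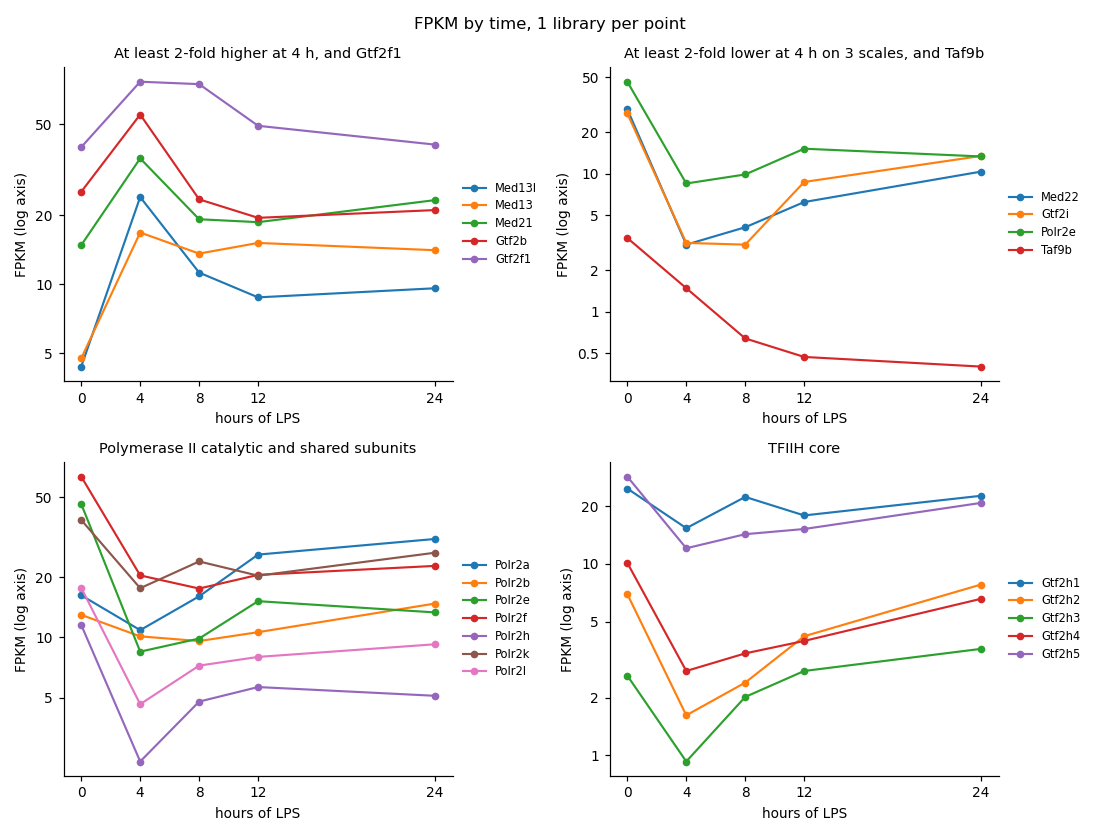
FPKM (log axis) against hours of LPS, 1 library per point, for genes higher at 4 h, for genes lower at 4 h and Taf9b, for the 2 large and the 5 shared polymerase subunits, and for the 5 TFIIH core subunits. Med13 stays near its 4 h level of 16.8 FPKM while Med13l, Med21 and Gtf2b come down from theirs, and all 5 TFIIH genes have their lowest point at 4 h.

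In the Mediator middle, which passes signals between tail and head, 1 of 8 genes was higher at 4 h and 0 lower. Med21 (gene ID 108098, chr6:146642579-146650600), which with Med7 forms the hinge of the complex, measured 14.8 FPKM at 0 h and 35.5, 19.2, 18.7 and 23.3 FPKM at 4, 8, 12 and 24 h. The 4 h level was 2.39 times that at 0 h, and the other 4 libraries lay below it. Med21 is among the shortest Mediator transcripts, so the difference of 1.20 became 2.52 with the length trend removed. Its hinge partner Med7 was 7.04, 6.7, 7.57, 6.89 and 7.97 FPKM, level throughout. Med1, the main contact of nuclear receptors, was 13.5, 19.7, 15.6, 14.3 and 16.7 FPKM, and its 4 h difference was 0.51, or 1.21 after centring. Med26, which can bring elongation factors to the polymerase, was 3.78, 1.99, 2.89, 3.07 and 4.13 FPKM, the lowest at 4 h. Med10 was 25.4, 26.4, 29.2, 22.5 and 35.7 FPKM, Med4 13.3, 6.47, 9.64, 8.41 and 12.8 FPKM, Med9 8.19, 3.9, 5.29, 4.95 and 6.04 FPKM and Med31 3.97, 2.09, 3.19, 2.6 and 4.0 FPKM.

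In the head, which touches the polymerase, 2 of 8 genes were lower at 4 h, Med22 and Med18. Med22 (gene ID 20933, chr2:26905267-26910642) measured 29.3 FPKM at 0 h and 3.06, 4.09, 6.23 and 10.4 FPKM at 4, 8, 12 and 24 h. Its 0 h level was 9.57 times that at 4 h, a log2 difference of -2.90, the largest in size among the 78 genes on the scale without centring. It was -2.20 after centring, where Med13l at 2.92 and Med13 at 2.33 were larger in size. With the length trend removed it was -2.24, where Med21, Gtf2i and Med13l were larger in size. At 24 h Med22 was still -1.42 from 0 h. The 4 LPS libraries lay in time order without reaching the 0 h level. Med18 was 2.24, 0.36, 1.3, 1.58 and 2.0 FPKM. At 4 h the Med18 value rests on about 11 reads, with a 95% counting interval of 0.18 to 0.64 FPKM, against 1.75 to 2.83 FPKM at 0 h. Med20, the partner of Med18, was 9.93, 4.47, 7.45, 8.28 and 11.5 FPKM. At 4 h it was just short of 2-fold lower on log2(FPKM + 1), though its 0 h level was 2.22 times that at 4 h. Med6 was 11.8, 10.4, 11.8, 13.6 and 17.9 FPKM, highest at 24 h, and its difference of 0.56 there was 1.21 with the length trend removed. Med17, the scaffold of the head, was 10.6, 7.11, 6.01, 6.43 and 8.74 FPKM. Med8, Med11 and Med19 were within 2-fold of 0 h at every time, and Med19 was 9.87, 9.0, 11.1, 8.78 and 10.96 FPKM.

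Med14, the backbone that joins the modules, was 2.89, 2.96, 2.13, 3.08 and 3.18 FPKM, a difference of 0.03 at 4 h. In the tail, which activators contact, Med15 was the most abundant Mediator gene in all 5 libraries and the most even, at 35.8, 37.4, 37.7, 38.7 and 37.03 FPKM. Med23, a contact of several activators, was 6.15, 5.59, 5.03, 7.21 and 8.89 FPKM. The 4 h library was past 2-fold below 0 h for the other 3 tail genes: Med25 was 19.3, 7.06, 7.99, 10.1 and 14.1 FPKM, Med24 was 11.2, 4.53, 8.37, 10.8 and 10.3 FPKM and Med16 was 12.3, 5.51, 8.01, 9.83 and 7.55 FPKM. All 3 were within 2-fold of 0 h at 24 h. Of the subunits Med27 to Med30, Med30 was lower at 4 h, at 13.7, 5.08, 7.23, 5.34 and 8.12 FPKM, although its difference of -1.27 became 0.02 with the length trend removed. Med28 was 10.8, 10.02, 14.3, 12.1 and 8.37 FPKM, Med27 6.14, 4.1, 4.23, 4.42 and 4.92 FPKM and Med29 7.2, 4.16, 5.26, 5.49 and 4.6 FPKM. Over the 29 Mediator genes, the highest level was 16.0 times the lowest at 0 h, 104 times at 4 h and 18.5 times at 24 h, with Med18 the lowest in each library.

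The general factors TFIIA, TFIIB, TFIIE and TFIIF differed in direction at 4 h. Gtf2b (gene ID 229906, chr3:142765247-142783606), the single subunit of TFIIB, was 25.4 FPKM at 0 h and 55.1, 23.5, 19.5 and 21.1 FPKM at 4, 8, 12 and 24 h. The 4 h library was high alone, 2.17 times the 0 h level, and from 8 h on Gtf2b was below its start. Its 4 h difference was 1.09, which a pseudocount of 5 FPKM put at 0.98, and from 4 h to 24 h it was -1.34. Gtf2f1 (gene ID 98053, chr17:57003401-57011394), the large subunit of TFIIF, was 39.7 FPKM at 0 h and 76.6, 74.8, 49.2 and 40.7 FPKM at 4, 8, 12 and 24 h, at 0.93 just short of 2-fold higher at 4 h. It was high at both 4 and 8 h and near its start at 24 h. Its partner Gtf2f2 was 15.1, 12.2, 9.74, 10.2 and 10.7 FPKM, so the ratio of the TFIIF subunits was 2.64 at 0 h, 6.27, 7.68 and 4.84 at 4, 8 and 12 h and 3.80 at 24 h.

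The TFIIE partners differed at later times. Gtf2e2, its small subunit, was 9.29, 4.65, 12.1, 16.6 and 15.8 FPKM, lowest at 4 h and highest at 12 h, with a difference of 1.57 between 4 h and 24 h. Gtf2e1, the large subunit, was 3.88, 2.49, 2.34, 2.51 and 3.83 FPKM, and the ratio of small to large was 2.39, 1.87, 5.18, 6.61 and 4.12. Of the TFIIA genes, Gtf2a1 was 17.5, 11.95, 12.1, 9.88 and 14.2 FPKM and Gtf2a2 was 23.7, 9.18, 9.56, 8.55 and 13.4 FPKM. Gtf2a2 was at least 2-fold lower at 4 h (-1.28), a difference that was -0.01 with the length trend removed.

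**Figure D5:**
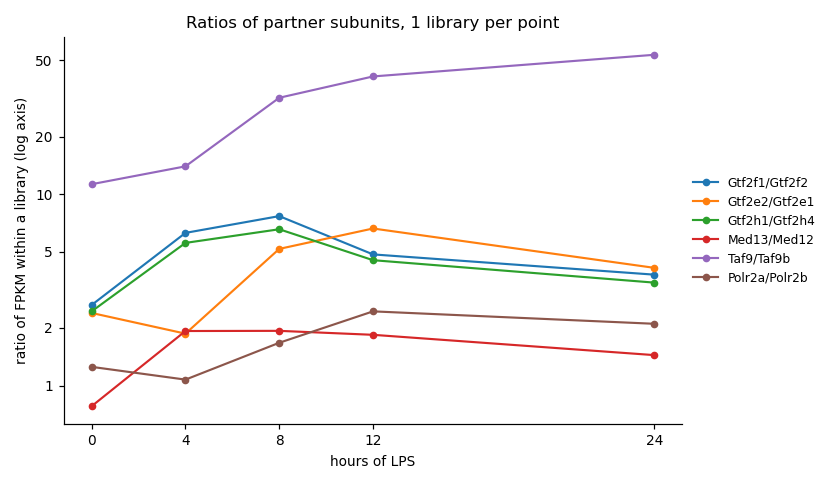
Ratio of FPKM between partner subunits within a library (y axis, log scale) against hours of LPS, 1 library per point. Gtf2f1 to Gtf2f2 and Gtf2h1 to Gtf2h4 peak at 8 h and turn back, whereas Taf9 to Taf9b goes from 11.3 at 0 h to 53.5 at 24 h.

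The TFIIH core, which serves both promoter opening and nucleotide excision repair, had its lowest levels at 4 h. All 5 genes had their lowest value there, as did 46.1% of all genes tested, and 3 were at least 2-fold under 0 h, beside 38.1% of all genes, with a median of −1.18. At 24 h 0 of 5 were past 2-fold, beside 11.3% of all genes higher and 14.5% lower, and the median was −0.12. The 4 h median was −0.48 after centring and −0.30 with the length trend removed, and on both of these scales none of the 5 was 2-fold lower. Gtf2h2, the p44 subunit, was 6.95, 1.62, 2.4, 4.19 and 7.8 FPKM, a difference of 1.75 between 4 h and 24 h. Gtf2h4, the p52 subunit, was 10.1, 2.76, 3.41, 3.96 and 6.57 FPKM, Gtf2h5 was 28.5, 12.1, 14.3, 15.2 and 20.8 FPKM, Gtf2h1 24.7, 15.4, 22.4, 17.9 and 22.7 FPKM and Gtf2h3 2.61, 0.93, 2.02, 2.76 and 3.6 FPKM. Of the 5 genes for the helicases and kinase of TFIIH, which the symbols do not cover, 0 were higher and 1 lower at 4 h, with a median of −0.68. That gene was Ccnh, at 8.11, 2.78, 3.65, 4.43 and 6.23 FPKM, the cyclin of Cdk7, itself at 3.88, 2.24, 3.25, 3.42 and 3.85 FPKM. The helicase Ercc3 was 12.2, 9.56, 11.5, 12.03 and 16.3 FPKM.

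Gtf2i (gene ID 14886, chr5:134237832-134317678) encodes TFII-I, a DNA-binding factor that also has a signalling role and is no part of the basal set. It measured 27.3 FPKM at 0 h and 3.15, 3.06, 8.71 and 13.4 FPKM at 4, 8, 12 and 24 h. The 0 h level was 8.67 times that at 4 h, and the 4 and 8 h libraries were the lowest, with the later ones between these and the start. Against 0 h the differences in time order were -2.77, -2.80, -1.54 and -0.97. Its relatives had the same order of 4 h below 24 h below 0 h: Gtf2ird1 was 2.26, 0.31, 0.72, 1.3 and 1.7 FPKM and Gtf2ird2 was 3.7, 1.51, 2.18, 2.46 and 3.04 FPKM. These genes share sequence, so an estimate that divides reads among copies could move values between them.

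Of the TFIID subunits, 4 of the 14 that passed the filter were at least 2-fold lower at 4 h and 0 higher, with a median of −0.88, beside 38.1% of all genes lower and 12.2% higher. At 24 h the median was 0.01, with 1 gene, Taf9b, lower, beside 14.5% of all genes. Taf1, the largest subunit and reader of acetylated histones, was 4.33, 5.96, 4.94, 5.56 and 7.51 FPKM, highest at 24 h. Taf7, which binds Taf1 and restrains its activity, was 2.49, 3.47, 3.3, 3.93 and 4.09 FPKM, above 0 h in all 4 LPS libraries. Taf2, which contacts the start site, was 4.37, 4.58, 3.18, 4.63 and 5.32 FPKM. Among the 14, these 3 were the ones not below their start at 4 h.

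Taf6, a histone-fold subunit, was 13.98, 3.57, 6.03, 9.98 and 12.1 FPKM, with a difference of -1.71 at 4 h, or -0.83 with the length trend removed, and it differed by 1.52 between 4 h and 24 h. Taf10, the most abundant gene of all 80 at 0 h and shared with SAGA, was 86.6, 29.9, 42.1, 49.7 and 44.8 FPKM. Taf12 was 13.1, 5.15, 11.3, 12.04 and 14.8 FPKM and Taf13 was 18, 7.95, 7.68, 11.9 and 14.4 FPKM. These 4 were the TFIID genes past 2-fold at 4 h on log2(FPKM + 1). By the plain ratio of FPKM, Taf3, Taf4, Taf5, Taf8 and Taf9b were also past 2-fold lower, with Taf5 at 0 h 3.25 times its 4 h level. Taf3, which reads methylated histone H3 at promoters, was 5.61, 2.7, 2.61, 2.85 and 5.4 FPKM, and Taf4 was 5.9, 2.6, 3.38, 3.52 and 6.52 FPKM. Taf5 was 1.98, 0.61, 0.92, 1.4 and 2.81 FPKM and Taf8 was 6.56, 3.07, 5.04, 5.18 and 6.92 FPKM. Each of these 4 was lower in all libraries of 4, 8 and 12 h than at 0 h and within 2-fold of it at 24 h.

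Taf9 and Taf9b are paralogs that can fill the same place in TFIID and SAGA. Taf9b (gene ID 407786, chrX:106206874-106221158) measured 3.42 FPKM at 0 h and 1.48, 0.64, 0.47 and 0.40 FPKM at 4, 8, 12 and 24 h, lower in each successive library. The 0 h level was 8.55 times that at 24 h, where the value rests on about 20 reads, with a 95% counting interval of 0.25 to 0.63 FPKM against 2.92 to 3.97 FPKM at 0 h. Its difference at 24 h was -1.66, and -1.55 with the length trend removed. Taf9 was 38.5, 20.7, 20.4, 19.4 and 21.4 FPKM, and the ratio of Taf9 to Taf9b was 11.3, 14.0, 31.9, 41.2 and 53.5. The exons of Taf9 overlap those of the protein-coding gene Ak6 on the same strand, so reads may have been divided between the genes.

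The TAF genes outside TFIID did not follow a common course. Taf5l and Taf6l, the TAF-like subunits of SAGA, were 8.7, 7.78, 5.28, 4.92 and 8.24 FPKM and 12.1, 4.12, 6.7, 7.24 and 6.39 FPKM, and Taf6l was 2-fold lower at 4 h (-1.36). Among the SL1 genes, Taf1d was lower at 4 h, at 16.2, 6.46, 5.17, 6.44 and 9.27 FPKM, a difference of -1.21 that became 0.04 with the length trend removed. Taf1b was 4.77, 4.46, 6.22, 4.12 and 5.91 FPKM, Taf1a 2.55, 1.09, 1.49, 1.53 and 2.21 FPKM and Taf1c 5.5, 2.52, 3.38, 3.26 and 4.91 FPKM. Taf15, an RNA-binding protein of the FET family, was 26.05, 26.8, 17.96, 15.3 and 17.2 FPKM, level at 4 h and lower from 8 h on.

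Over time, the 4 h library was the lowest of the 5 for 43 of the 78 genes (55.1%, against 46.1% of all genes tested), and the 24 h library the highest for 23 (29.5%, against 24.5%). Of the 25 genes lower at 4 h, 20 were within 2-fold of 0 h at 24 h (25.6% of the 78, against 25.7% of all genes), and 5 were lower at both times (6.41%, against 11.9%). Those 5 were Polr2e, Polr2f, Polr2h, Polr2j and Med22. Between 4 h and 8 h, 2 genes were higher (5.23% of all genes), Polr2i and Gtf2e2, and 2 lower (3.88%), Med13l and Gtf2b. From 8 h to 12 h, 1 gene, Gtf2i, was higher (2.58%) and 0 lower (0.939%), and from 12 h to 24 h 0 were past 2-fold in either direction (3.42% and 3.5%).

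Genes that act with this machinery were read from lists by function. Of 28 pausing and elongation factors, 4 were higher and 8 lower at 4 h, with a median of −0.37, and 4 were higher and 2 lower at 24 h, with a median of 0.13, beside 11.3% and 14.5% of all genes. Higher at both times were Ell2, Aff1 and Cdk12, with Tcea1 at 4 h and Ccnt1 at 24 h. Larp7 and Supt4a were lower at both times. Ell2, an elongation factor of the super elongation complex, was 15.01, 63.8, 71.4, 76.4 and 120 FPKM. Aff1, a scaffold of that complex, was 9.38, 61.99, 29.97, 34.8 and 31.3 FPKM. Their paralogs Ell and Aff4 did not share this course. Ell was 11.2, 2.08, 6.69, 12.02 and 10.86 FPKM, and its 4 h difference of -1.99 was the lowest of the list. Aff4 was 10.12, 9.15, 6.57, 8.06 and 12.02 FPKM. Hexim1, the inhibitor of the kinase P-TEFb, was 17.3, 3.68, 8.29, 11.2 and 21.7 FPKM, and Larp7, which holds the RNA of the inhibited form, went from 18.9 FPKM at 0 h to 5.98 FPKM at 24 h. Cdk9, the kinase of P-TEFb, was 47.1, 19.2, 24.9, 23.8 and 25.6 FPKM and its cyclin Ccnt1 was 2.25, 4.83, 3.96, 7.36 and 10 FPKM.

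TBP and its relatives gave 0 higher and 1 lower of 3 at 4 h, the TBP-like gene Tbpl1 at 9.65, 4.25, 5.47, 5.17 and 9.07 FPKM. Tbp was 6.81, 6.1, 5.62, 5.76 and 9.2 FPKM, and Btaf1, which strips TBP from DNA, was 7.72, 15.4, 8.75, 9.4 and 12.4 FPKM. All 5 phosphatases of the polymerase tail that passed the filter were lower at 4 h, with a median of −1.42, or −0.73 after centring and −0.72 with the length trend removed. On those scales only Ctdsp2 stayed past 2-fold, at -1.62 and -1.86, and it was 45.7, 8.37, 4.44, 6.57 and 15.4 FPKM. Of 13 subunits of polymerases I and III that passed the filter, 0 were higher and 8 lower at 4 h, with a median of −1.24, or −0.54 after centring and −0.18 with the length trend removed, and 0 were higher and 3 lower at 24 h. Polr3gl, a polymerase III subunit, was 23.8, 3.57, 3.74, 6.18 and 8.0 FPKM, whereas Polr3c was 17.1, 31.9, 24.9, 22.3 and 26.8 FPKM. Of 14 Integrator genes, which encode a complex that cleaves nascent RNA, 1 was higher (Ints13, listed as Asun) and 3 lower at 4 h (Ints3, Ints7 and Ints11, the last listed as Cpsf3l), with a median of −0.24. The counts of these lists stand beside 12.2% of all genes higher and 38.1% lower at 4 h, and 11.3% higher and 14.5% lower at 24 h.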

How the data were processed

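Macrophage RNA was sequenced on the BGISEQ-500, per the labels' protocols, with 1 library per time point. FPKM values, deposited as 1 table by the authors, have a column for each library per the file headers. The submitters' processing notes name Bowtie2, RSEM and GRCm38. Versions, roles, annotation and strand setting were not given in the sources used here. Each value is relative to its library, so a gene's FPKM is lower when other genes take more of the reads, and reads shared by copies are divided by estimate.

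Symbols of 20 rows read as dates and were put back from their gene identifiers. The 80 genes were found by symbol, and the background was formed by the 9795 genes averaging 1 FPKM or more across the 5 libraries. Differences and 2-fold calls are on log2(FPKM + 1), and levels given as times another level are ratios of FPKM. No test was possible with 1 library per time. Lengths are the longest coding transcript of GENCODE M21, matched for 99.5% of the genes tested; the length trend is a running median of 500 genes. Depth was estimated from the steps of low FPKM values of single-transcript genes, searched from 5 to 60 M reads, so read numbers and their 95% Poisson intervals are approximate and cover counting error only. Coordinates and promoters are RefSeq, GRCm38.p6; promoters were found for 69 of the 80 genes. The count of 2-fold differences and the length trend were tested on simulated data.

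The genes and lists were chosen with earlier results of these data known. Values in all 5 libraries are given for the extreme genes of each complex at 4 h and 24 h, every gene 2-fold higher at any time, the 10 largest differences at 4 h and 24 h, genes under the filter, and the catalytic, scaffold and activator-contact subunits; other genes named were added after their values were seen. Alternatives were other pseudocounts, filters and thresholds, centring on the median gene and removal of the length trend. Python 3.11.15, pandas 2.3.3, numpy 2.4.6, scipy 1.17.1 and matplotlib 3.10.9 were used.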

Additional observations from a re-analysis of the deposited data

How the results depend on the processing

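Counts here are of genes past the threshold, and causes were not tested except where the setting itself fixes them. A pseudocount of 0.1 FPKM gave 2 genes higher at 24 h against 1, beside 13.3% of all genes, and 37 lower at 4 h against 25. The share of the 78 lower at 4 h was then above the 44% of all genes, the reverse of the order in the main setting. A pseudocount of 5 FPKM, which shrinks folds of low genes, gave 12 lower at 4 h, 0 higher and 6 lower at 8 h, 6 lower at 12 h, 0 higher at 24 h, and 3 higher and 1 lower for 24 h against 4 h. With a mean of at least 5 FPKM, which leaves 60 genes, 10 were higher for 24 h against 4 h. Centring on the median gene gave 9 higher and 8 lower at 4 h, 4 lower at 8 h, 3 higher and 6 lower at 12 h, 3 higher at 24 h, and 4 higher and 6 lower for 24 h against 4 h. Removing the length trend gave 9 higher and 4 lower at 4 h, 6 and 3 at 8 h, 4 and 3 at 12 h, 5 higher at 24 h, and 6 higher and 5 lower for 24 h against 4 h. At 4 h it turned 29 of the 78 genes from below to above 0, and with them the median of the 78 (0.10). Of the 25 genes lower at 4 h, it turned 3, namely Polr2k (0.23), Med30 (0.022) and Taf1d (0.043). A 1.5-fold threshold gave 46 lower at 4 h, 28 lower at 8 h, 4 higher and 29 lower at 12 h, 7 higher and 16 lower at 24 h, 36 higher and 5 lower for 24 h against 4 h, and 20 genes within 1.5-fold of 0 h throughout, or 25.6% against 15.4% of all genes. For the pseudocount of 5 FPKM, the mean of at least 5 FPKM and the 1.5-fold threshold, counts of higher and lower genes are given without the share of all genes. Those counts therefore do not show whether the 78 differed from all genes. At 4 h the median gene tested, at −0.70, was itself past 1.5-fold lower. The range over the 4 LPS libraries and the background matched on mean FPKM were chosen after seeing the data. No paired analysis was possible because each time point was 1 library, and for the same reason no library could be left out of a time point.

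The data are limited by 1 library per time, by comparison with the 0 h library alone, by an FPKM scale on which the median gene shifts by up to 0.70 on the log2 scale, and by a relation of the differences to transcript length. At the estimated depth, genes near 1 FPKM rest on few reads, as for Med18 at 4 h and Taf9b at 24 h.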
